A study of Mus musculus with 2 samples.

Results

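Chemokines are small secreted proteins that guide the migration of blood cells, and their receptors are G protein-coupled receptors on the cell surface. They are grouped as CC, CXC, CX3C and XC by the spacing of their first cysteines. In bone marrow, Cxcl12 made by stromal cells and its receptor Cxcr4 on blood cells hold stem cells and immature myeloid cells in place, while Cxcr2 and its ligands draw neutrophils into the blood and Ccr2 does so for monocytes. Atypical receptors (Ackr1 to Ackr4) bind chemokines without the usual G protein signal.

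The genes described here are those whose symbol is Ccl, Cxcl, Ccr or Cxcr followed by a number, together with Cx3cl1, Cx3cr1, Xcl1, Xcr1, the chemerin receptor Cmklr1 and the atypical receptors. Pf4 and Ppbp, once named Cxcl4 and Cxcl7, were included by their older symbols. This gave 57 of the 18193 genes with a probe set of their own on the array, 35 ligands and 22 receptors. Genes of the same kind without a probe set annotated to them alone, such as Ccl19, Ccl26 and the Ccl21 genes, were not analysed here. Noct, which carries Ccr4 as an alias, is not a chemokine receptor and was left out.

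RNA came from KLS cells, bone marrow cells sorted as lacking lineage markers (lin-) and carrying c-kit and Sca, a fraction that holds stem cells and early progenitors. One sample was from wild type mice. The other, labelled TIF1γ Δ/Δ, came from mice in which the gene of TIF1γ (Trim33), a transcriptional regulator, had been inactivated conditionally. The sources used here do not give the Cre line, the age of the mice, the time since inactivation or the number of mice pooled. Each genotype was measured on 1 Affymetrix array. There were therefore no replicates, no difference has a replicate check, and no SD or p-value can be given.

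Values are MAS5 signal intensities on a linear scale, which are comparable for 1 gene between the arrays but not between genes. A gene counted as measured on an array when it reached that array's median signal, 14.4 for wild type and 11.7 for TIF1γ Δ/Δ. This signal is called the floor. Pairs of signals are given with the wild type array first and the TIF1γ Δ/Δ array second. Differences are log2 of the TIF1γ Δ/Δ signal over the wild type signal, with the median difference of all measured probe sets (-0.024) taken off. Where 1 array was under the floor, its signal was set to the floor and the gene is given as at least N-fold apart. Such a bound lies below 0 if only the wild type array was measured, and above 0 if only the TIF1γ Δ/Δ array was. A gene whose difference then pointed the other way was given no fold.

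The gate was checked against markers of KLS cells. All 9 with a probe set were measured on both arrays and none was 2-fold apart, with Kit at 384 and 495, Cd34 at 1398 and 2326, and a list median of 0.23 in log2. The gene for Sca, Ly6a, was not analysed here. Trim33 itself gave 379 and 172. Genes of cells that the gate should remove were also seen on the wild type array. Summed over a list, and without the chemokine system genes in it, the signal of 10 neutrophil genes was 31004 and 300.04. That of 10 monocyte and macrophage genes was 5778 and 697. Both sums were lower in the TIF1γ Δ/Δ sample, so these markers moved with most of the differences below, and their part in those was not tested. In such bulk samples fewer cells of a type and less RNA per cell cannot be told apart.

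In the TIF1γ Δ/Δ sample chemokine system genes were lower far more often than higher. Of the 57 genes, 15 were at least 2-fold lower and 1, the platelet chemokine Ppbp, was at least 2-fold higher. Over all 18193 genes the corresponding shares were 3.88% lower and 1.63% higher, against 26.3% and 1.75% of the chemokine system genes. A further 9 were measured on both arrays and under 2-fold apart. For 7 the bound fell short of 2-fold, which does not show that they were under 2-fold apart, and 25 had no fold because they were under the floor on both arrays (24) or just above it in the TIF1γ Δ/Δ sample only (Cxcl11, 13.4 and 12.3). Of the 15 lower genes, 4 are bounds. Among the 21 genes measured on both arrays, where no bound enters, 11 were at least 2-fold lower and 1 higher, with background shares of 4.65% and 2.62%. The median difference of these 21 was -1.11, and that of all 10365 genes measured on both arrays was 0.044.

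**Figure D1:**
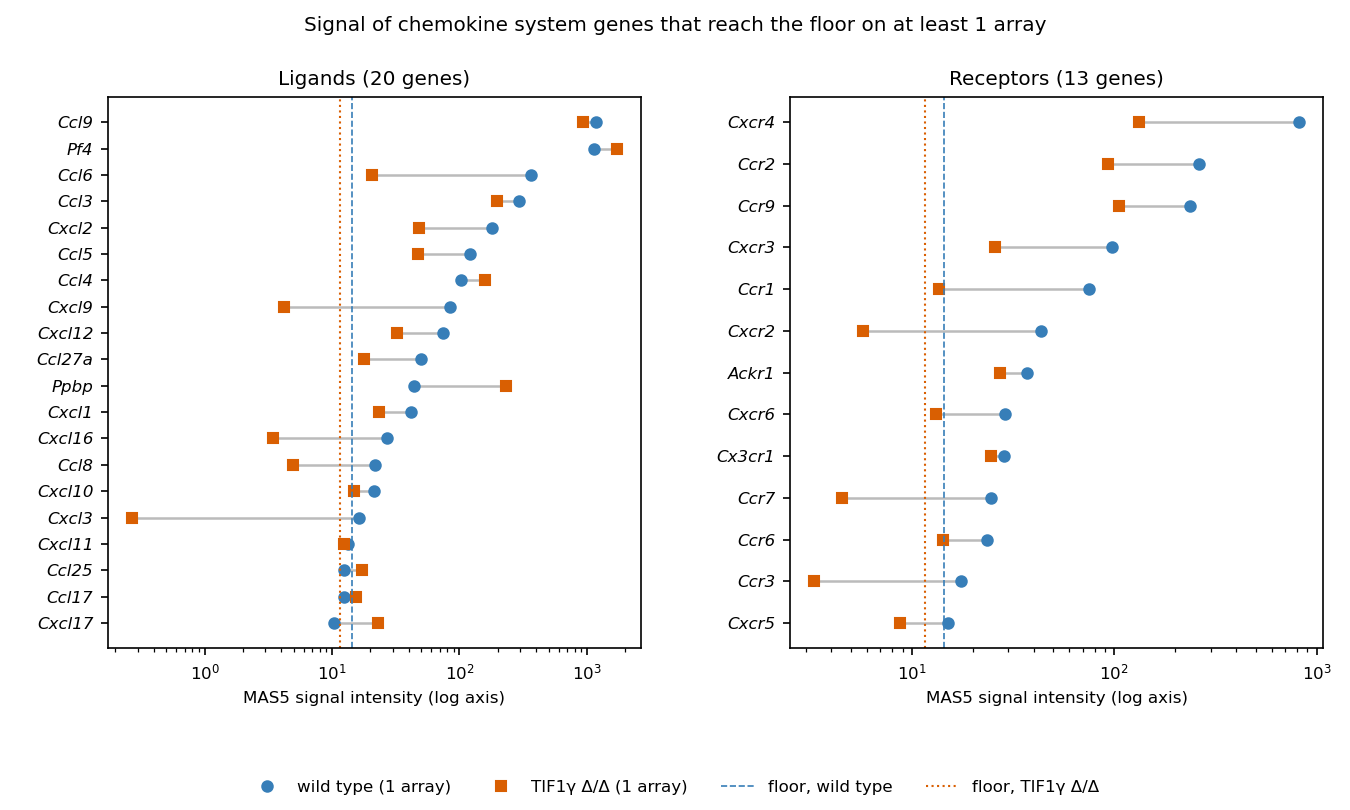
MAS5 signal intensity (log axis) of the 33 chemokine system genes that reached the floor on at least 1 array, ligands on the left and receptors on the right, with 1 array per genotype. Circles are wild type, squares TIF1γ Δ/Δ, and vertical lines mark each array's floor (14.4 and 11.7). All 13 receptors lie further left on the TIF1γ Δ/Δ array, whereas 6 ligands (Ppbp, Pf4, Ccl4, Ccl17, Ccl25 and Cxcl17) lie further right.

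Receptors lay on the lower side in the TIF1γ Δ/Δ sample. Of 22 receptors, 13 reached the wild type floor and 9 the TIF1γ Δ/Δ floor, by the probe set chosen for each. All 13 had a difference below 0, of which 4 were bounds, and 8 of the 22 lay at least 2-fold lower. All 9 receptors measured on both arrays lay below 0, against 46.9% of all genes so measured. The receptors below 0 were 12 of 13 with quantile normalization, where Cx3cr1 turned. They were 17 of 18 with a floor at the 40th percentile, 20 of 22 without a floor and 19 of 22 with a pseudocount. Ligands were divided. Of 35, 16 reached the floor on each array, and 7 were at least 2-fold lower and 1 higher. Of the 12 measured on both arrays, 9 lay below 0 and 3 above. Of the 19 with a fold, which include bounds whose side is fixed, 13 lay below and 6 above 0. For genes measured on both arrays the median was -1.13 over 9 receptors and -0.69 over 12 ligands, so ligands lay 0.44 above receptors in log2. Members are not replicates, so that gap has no test, and it was 1.04 with a floor at the 65th percentile and 1.16 without probe sets shared between transcripts.

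**Figure D2:**
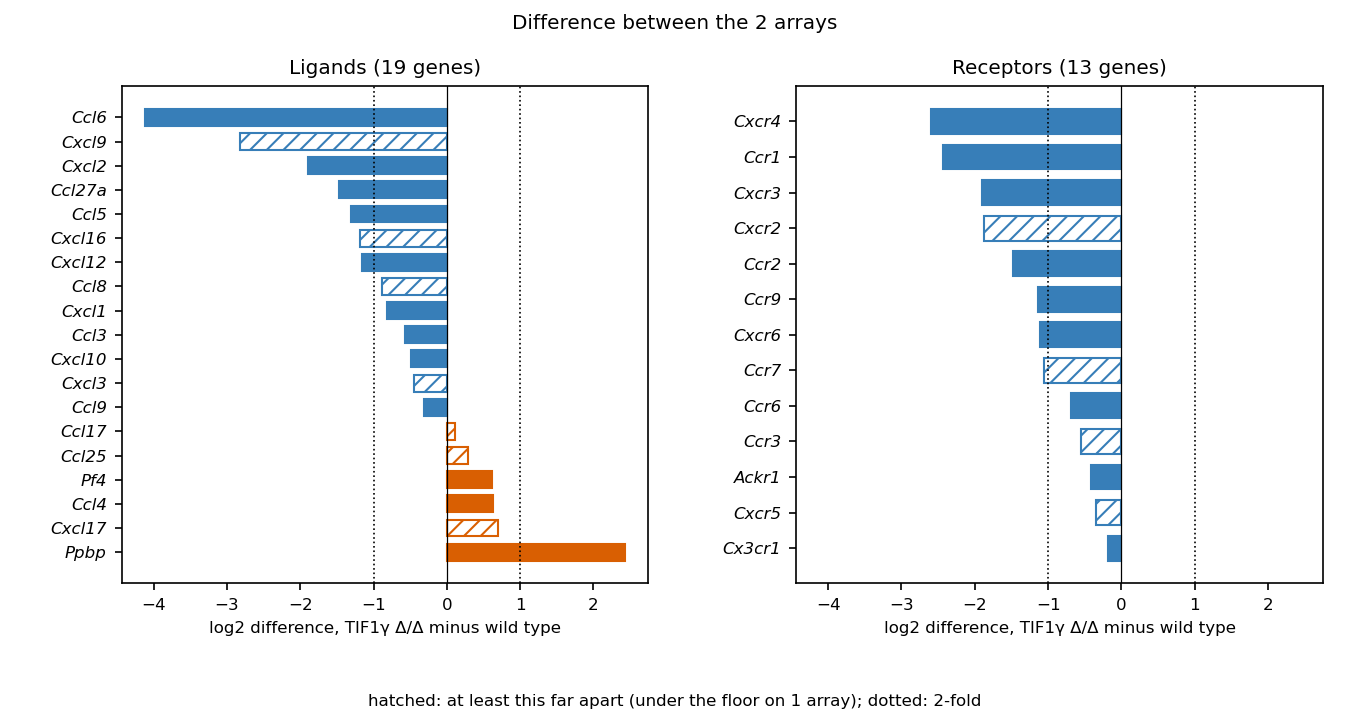
Log2 difference of the TIF1γ Δ/Δ array from the wild type array for 19 ligands and 13 receptors with a fold. Hatched bars are bounds and dotted lines mark 2-fold; bars reach from -4.11 for Ccl6 to 2.42 for Ppbp among ligands, and from -2.60 for Cxcr4 to -0.19 for Cx3cr1 among receptors.

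Cxcr4, the receptor that retains blood cells in the marrow, gave 816 and 132. This is 6.06-fold lower (log2 -2.60) by its only probe set. Its ligand Cxcl12 gave 73.8 and 32.4 (log2 -1.16), and a second probe set gave 56.5 and 22.8 (log2 -1.28). Receptor and ligand were thus lower on the same array. Averaging all 3 probe sets of Cxcl12, of which 1 lay under the floor, gave -0.73. Ackr3, the atypical receptor that also binds Cxcl12, lay under the floor on both arrays (5.49 and 0.436). Cxcl12 is a stromal gene, and of 12 other stroma and endothelium markers 1 was at least 2-fold lower and 2 higher. Lpl gave 247 and 46.0, Pdgfrb 118 and 279 and Emcn 10.8 and 28.8, and the list's summed signal was 454 and 447. Of the 12, 7 were under the floor on both arrays, among them Cdh5, Pecam1 and Lepr.

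The neutrophil receptor Cxcr2 gave 43.5 and 5.71, the second under the floor, and was at least 3.67-fold lower. With a floor at the 65th percentile that bound fell to a log2 of -0.51. Its ligands went both ways. Cxcl2, a neutrophil attractant released in inflammation, gave 180 and 47.7, 3.72-fold lower (log2 -1.89). Cxcl1, a close relative, gave 41.9 and 23.4 (log2 -0.82), and Cxcl3 gave 16.2, close to the floor, and 0.271. Cxcl5 was under the floor on both arrays. Ppbp, a chemokine of platelet granules, differed in the opposite direction, with 44.3 and 234, 5.37-fold higher (log2 2.42). Of the 10 neutrophil genes outside the chemokine system that had a probe set, 8 were at least 2-fold lower, while the granulocyte receptor Csf3r gave 163 and 168.

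Pf4, also a chemokine of platelet granules, gave 1134 and 1713 (log2 0.62) and so lay higher with Ppbp, but under 2-fold. Of 10 further megakaryocyte and platelet genes 2 were at least 2-fold higher, Itgb3 (58.3 to 146) and Tubb1 (25.8 to 73.9), and none lower. Their summed signal was 944 and 1302, and Gp6 was under the floor on both. The part of these markers in the Ppbp difference was not tested.

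Ccr1 and Ccr2, receptors of monocytes and other myeloid cells, were both lower. Ccr1 gave 75.1 and 13.6, 5.42-fold lower (log2 -2.44), and its second probe set gave 51.8 and 0.797. With a floor at the 65th percentile Ccr1 was at -1.29. Ccr2 gave 263 and 93.0, 2.79-fold lower (log2 -1.48). A second probe set of Ccr2 was at -0.73. Another gave 22.5 and 6.86, a bound of -0.92, which could lie only below 0. Of the ligands of Ccr2, Ccl2, Ccl7 and Ccl12 were under the floor on both arrays. Cx3cr1, another receptor of monocytes, was near the floor on both and differed little (28.5 and 24.6, log2 -0.19). With quantile normalization it was 0.051. Of the 10 monocyte and macrophage genes outside the chemokine system, 9 were at least 2-fold lower, among them Csf1r (684 and 91.1) and C1qb (503 and 5.97).

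The CC ligands that bind Ccr1 were unequal. Ccl6, made by myeloid cells, gave 363 and 20.6, 17.3-fold lower (log2 -4.11), and 253 and 21.2 by its second probe set. With a pseudocount in place of the floor it was at -3.34. Ccl9, another myeloid CC ligand and its neighbour on the chromosome, gave 1175 and 933 (log2 -0.31), and 33.2 and 35.0 by its second probe set. Ccl3, an inhibitor of stem cell proliferation in marrow, gave 296 and 196 (log2 -0.57), while Ccl4 gave 104 and 158 (log2 0.63). Ccl5, a chemokine of T and NK cells and platelets, gave 120 and 47.7, 2.48-fold lower (log2 -1.31). Thus 5 ligands of 1 chromosomal group ran from 17.3-fold lower to 1.55-fold higher.

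Several genes known from T and NK cells were also measured. Cxcr3, found on activated T and NK cells, gave 97.6 and 25.7, 3.74-fold lower (log2 -1.90). Of its interferon-induced ligands, Cxcl9 gave 84.1 and 4.20, at least 7.10-fold lower. A second probe set of Cxcl9 gave 22.9 and 10.4, the second under the floor, which is a bound of -0.95 in log2. With a floor at the 65th percentile the bound of the first probe set was -1.46. Cxcl10 gave 21.2 and 14.9 (log2 -0.49), and Cxcl11 has no fold. Cxcr6 gave 29.0 and 13.2 (log2 -1.11) and its ligand Cxcl16, which is also bound to the membrane of myeloid cells, gave 26.9 and 3.47, at least 2.27-fold lower. Ccr7, which brings T cells and dendritic cells to lymph nodes, gave 24.6 and 4.54, at least 2.08-fold lower. These last 3 lay near the threshold, and each had a value short of 2-fold in some of the alternative settings. With quantile scaling those of Cxcl16 and Ccr7 (-0.92 and -0.79) were bounds, and without a floor these genes were at -2.84 and -2.32. Of 11 T and NK cell genes outside the chemokine system, 3 were at least 2-fold lower. These were Klrd1 (141 and 36.5), Gzma (50.5 and 11.0) and Cd3d (28.2 and 1.79). All 8 with a fold lay below 0, but 5 of them are bounds, which could lie only there. The 3 measured on both arrays had a median of -0.33. The summed signal of the 11 genes was 1626 and 1242, of which Nkg7 alone gave 1249 and 1090. The T cell genes Cd3e and Cd4 and the NK cell gene Ncr1 were under the floor on both arrays.

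Ccr9, the receptor of thymus-seeding progenitors and gut T cells, gave 236 and 106, 2.19-fold lower (log2 -1.13), and 27.4 and 14.4 by a second measured probe set (log2 -0.91). The other 3 of its probe sets were under the floor. Both measured probe sets may also bind related transcripts, so Ccr9 has no value without such probe sets. Its ligand Ccl25, made in thymus and gut, was near the floor (12.5 and 17.3). Ccl27a, a skin chemokine, gave 50.4 and 17.8 (log2 -1.48, or -0.72 with a floor at the 65th percentile). Its probe set is of the same kind, and near-identical copies of the gene exist, so that value is uncertain.

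Of the other receptors, Ccr6 gave 23.4 and 14.3 and Ackr1 gave 37.0 and 27.2, both under 2-fold apart. Ccr3 gave 17.4 and 3.30 and Cxcr5 gave 15.1 and 8.74, which are bounds short of 2-fold; without a floor Ccr3 was at -2.28. Among the ligands, Ccl8 gave 21.9 and 4.96 (at least 1.85-fold lower), Ccl17 gave 12.4 and 15.4, and Cxcl17 gave 10.4 and 22.9, all bounds short of 2-fold. By the chosen probe set, 9 receptors were under the floor on both arrays (Ackr2, Ackr3, Ackr4, Ccr1l1, Ccr4, Ccr8, Ccr10, Cmklr1 and Xcr1), as were 15 ligands. Another probe set of Ackr4 gave 0.850 and 16.4, above the TIF1γ Δ/Δ floor. The 15 ligands include Xcl1, Cx3cl1, Cxcl13 and Cxcl14. A signal under the floor does not show that a gene is silent.

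Many of these genes lie side by side on a chromosome, where they arose by duplication. With at most 3 other protein-coding genes between neighbours, 5 groups held a gene with a fold. In the group of CC and related receptors, the 5 genes with a fold (Ccr9, Cxcr6, Ccr1, Ccr3 and Ccr2) were all below 0, with Ccr3 a bound. In the group that holds Ccl5, Ccl9, Ccl6, Ccl3 and Ccl4, 2 of 5 were at least 2-fold lower. Of the 6 genes in the group of Ccl2, only Ccl8 reached the floor. In the group of CXC ligands, Ppbp was at least 2-fold higher and Cxcl2 at least 2-fold lower. Pf4, next to Ppbp, lay above 0 and Cxcl1 and Cxcl3 below it, all short of 2-fold, with Cxcl3 a bound.

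**Figure D3:**
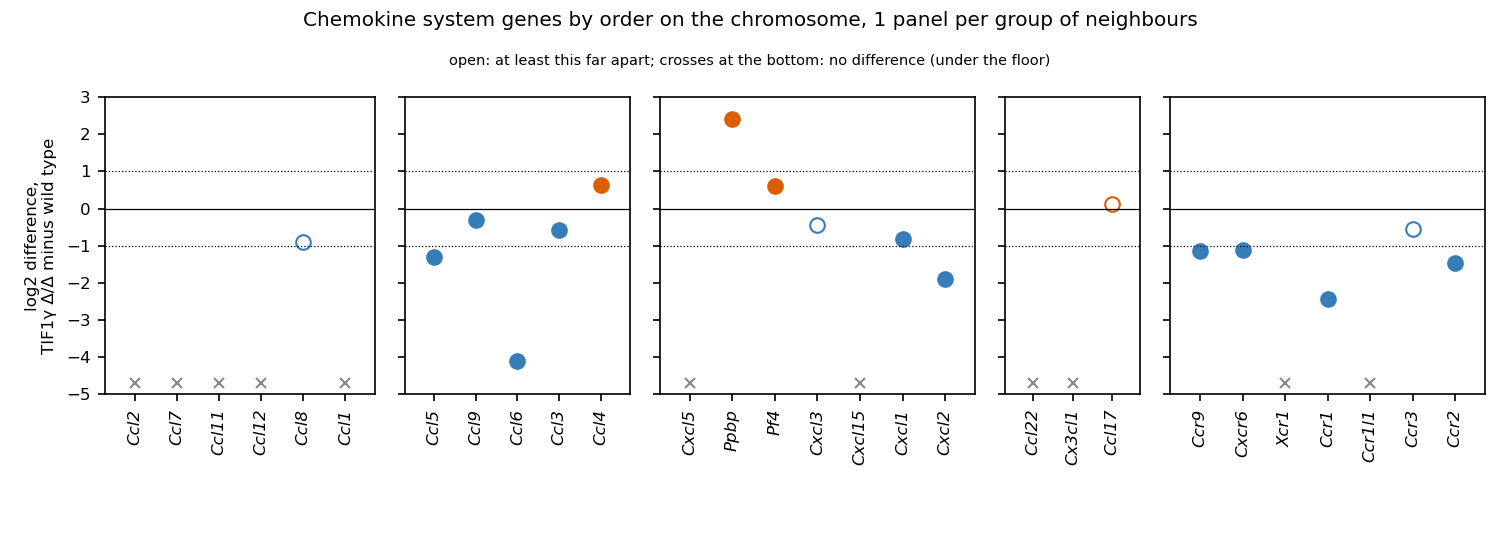
Log2 difference of the TIF1γ Δ/Δ array from the wild type array (1 array each) for chemokine system genes in the order in which they lie on the chromosome, 1 panel per group of neighbours. Open circles are bounds, dotted lines mark 2-fold, and crosses are genes without a difference; in the third panel Ppbp (2.42) and Pf4 (0.62) lie above 0 and Cxcl1 (-0.82) and Cxcl2 (-1.89) below it.

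The sequences before the transcription start are given for the 4 genes of the CXC group that were measured on both arrays, and for the neighbours Ccl6 and Ccl9, because these neighbours differed from each other. They are the 250 bases before the RefSeq start on GRCm38.p6, read 5′ to 3′ on the strand of the gene. Capitals mark matches to an NF-kappaB motif, searched as GGG and CC with 5 bases between them on either strand; adjoining matches overlap. NF-kappaB is a transcription factor of inflammation. The windows are chr5:90890995-90891244 for Cxcl1, chr5:90903649-90903898 for Cxcl2, chr5:90768268-90768517 for Ppbp and chr5:90772185-90772434 for Pf4, all on the plus strand. They are chr11:83593088-83593337 for Ccl6 and chr11:83578637-83578886 for Ccl9, both on the minus strand.
Cxcl1: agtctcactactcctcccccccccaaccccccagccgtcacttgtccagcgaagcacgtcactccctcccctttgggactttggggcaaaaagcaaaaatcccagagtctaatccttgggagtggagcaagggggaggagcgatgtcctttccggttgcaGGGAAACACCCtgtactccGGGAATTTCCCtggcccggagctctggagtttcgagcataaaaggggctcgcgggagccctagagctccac
Cxcl2: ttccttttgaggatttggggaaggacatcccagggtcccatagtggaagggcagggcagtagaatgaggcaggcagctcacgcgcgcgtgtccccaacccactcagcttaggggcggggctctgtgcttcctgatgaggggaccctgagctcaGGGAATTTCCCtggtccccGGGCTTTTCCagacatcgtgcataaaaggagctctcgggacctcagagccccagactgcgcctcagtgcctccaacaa
Ppbp: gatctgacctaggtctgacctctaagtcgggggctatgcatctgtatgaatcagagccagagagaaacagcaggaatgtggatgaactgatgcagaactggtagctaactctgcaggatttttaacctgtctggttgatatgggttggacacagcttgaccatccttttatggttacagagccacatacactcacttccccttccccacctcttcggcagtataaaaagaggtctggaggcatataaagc
Pf4: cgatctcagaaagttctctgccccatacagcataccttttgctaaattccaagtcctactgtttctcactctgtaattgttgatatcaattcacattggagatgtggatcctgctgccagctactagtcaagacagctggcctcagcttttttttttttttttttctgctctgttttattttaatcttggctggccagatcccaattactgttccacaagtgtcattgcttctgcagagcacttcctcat
Ccl6: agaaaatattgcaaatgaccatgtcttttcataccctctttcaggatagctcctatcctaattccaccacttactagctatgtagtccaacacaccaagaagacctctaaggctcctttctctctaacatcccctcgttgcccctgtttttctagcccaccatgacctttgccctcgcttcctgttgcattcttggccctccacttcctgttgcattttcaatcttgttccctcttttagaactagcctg
Ccl9: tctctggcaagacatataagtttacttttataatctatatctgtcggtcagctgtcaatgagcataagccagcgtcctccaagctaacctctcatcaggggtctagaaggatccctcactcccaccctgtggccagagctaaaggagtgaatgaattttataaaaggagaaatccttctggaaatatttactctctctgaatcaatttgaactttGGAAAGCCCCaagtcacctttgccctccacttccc

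Cxcl1 and Cxcl2 each hold the string GGGAATTTCC, which begins 71 bases before the start in Cxcl1 and 97 bases before it in Cxcl2. Neither Ppbp nor Pf4 holds a match, and Ppbp has TATAAA beginning 30 bases before its start. Ccl9 holds 1 match and Ccl6 none. Such matches are common, since 45.8% of 32851 windows of the same length hold 1 or more. Of the chemokine system genes, 44 had a window, and 54.2% of their 48 windows held a match. It was 9 of 14 windows for genes at least 2-fold lower and 17 of 34 for the others. The C/EBP motif TTNNGNAA, bound by factors of granulocytes and monocytes, was found in 9 of those 14 windows and in 14 of the other 34, against 36.8% of all windows. The 14 windows belong to 12 genes. Among the sequences shown, Ccl9 and Pf4 held 2 C/EBP matches each and Cxcl2 held 1, while Ccl6, Cxcl1 and Ppbp held none. TATAAA on either strand was found in 2 of the 14 windows and 13 of the 34, against 12.4% of all windows. A match is a string of letters, and nothing was measured about binding. The list of 12 genes with a probe set for NF-kappaB, its inhibitors and their kinase had 11 measured on both arrays. None of these 11 was 2-fold apart (median 0.072), with Nfkbia at 3069 and 2671 and Nfkbie at 436 and 310. The subunit gene Nfkb1 and the kinase gene Chuk were not analysed here.

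The machinery through which chemokine receptors act did not share the lower values of the receptors. Of 44 genes of chemokine signalling and directed migration, 40 were measured on both arrays, none was at least 2-fold lower, and the median was 0.17. The inhibitory G protein subunit Gnai2, which couples to these receptors, gave 2343 and 2366, the arrestin Arrb2 gave 246 and 238, and the small GTPase Rac2 gave 364 and 396. The 2 genes at least 2-fold higher both activate Rac, namely Tiam1 (33.3 and 112, log2 1.78) and Elmo1 (126 and 259, log2 1.07). Dock2, the partner of Elmo1 in leukocytes, gave 171 and 317 (log2 0.91), although 1 of its 3 probe sets went the other way.

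Receptors for other chemoattractants were mixed. Of 14 with a probe set, 2 were at least 2-fold lower, none was higher, and the median of the 7 measured on both arrays was 0.039. The formyl peptide receptor Fpr2, found on neutrophils and macrophages, gave 852 and 4.78, at least 71.9-fold lower. The leukotriene receptor Ltb4r1 gave 170 and 64.3 (log2 -1.38). S1pr1, which draws lymphocytes out of tissues, gave 48.7 and 24.4 (log2 -0.98), just under 2-fold, while the chemokine-binding Ccrl2 gave 87.1 and 88.1.

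**Figure D4:**
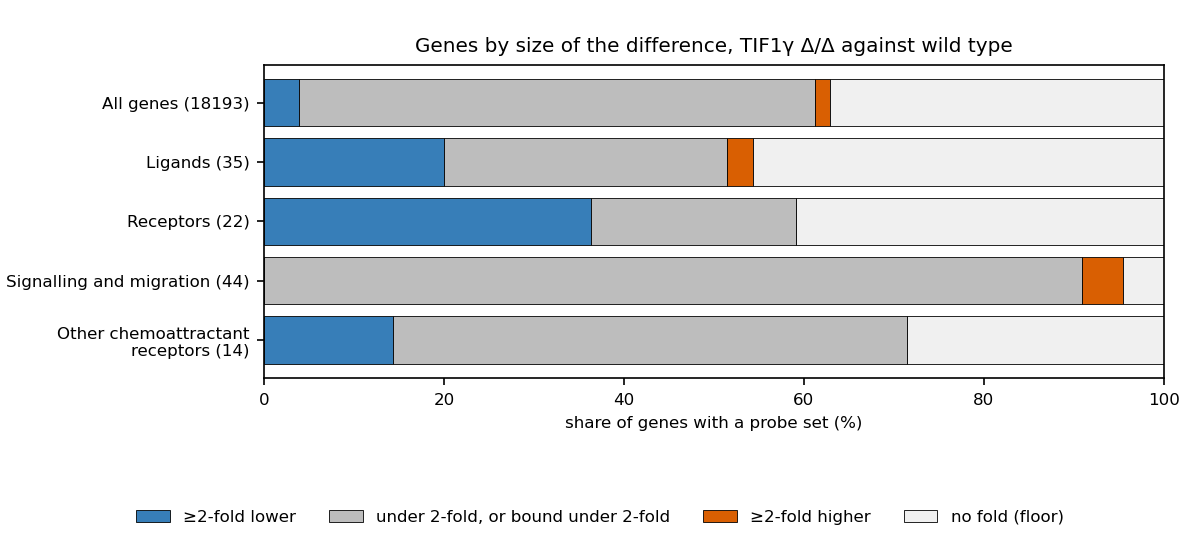
Share of genes with a probe set (%, number in brackets) that were at least 2-fold lower, under 2-fold apart (bounds short of 2-fold included), at least 2-fold higher or without a fold on the TIF1γ Δ/Δ array against the wild type array. At least 2-fold lower were 8 of 22 receptors and 7 of 35 ligands against 3.88% of all genes, and the signalling and migration list has no gene at least 2-fold lower.

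Other cell types that a marrow sort could hold were read in the same way. At least 2-fold lower were 5 of 8 erythroid genes, 3 of 9 B cell genes and, of 8 dendritic cell genes outside the chemokine system, 4, with none higher. Their summed signals were 1694 and 689, 10418 and 9812, and 7570 and 2036. Most of the B cell sum came from Ighm (5409 and 5169) and Jchain (4346 and 4440). The 3 lower B cell genes were Vpreb1 (269 and 43.1), Ms4a1 (127 and 9.02) and Blnk (46.0 and 9.68). Of 7 mast cell and basophil genes 1, Gata2 (182 and 472), was higher and none lower, with sums of 1509 and 1955. The part of these cells in the chemokine system differences was not tested.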

How the data were processed

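RNA of 2 sorted samples, 1 per genotype, was labelled with a two-cycle Affymetrix assay, per the labels' protocols. The deposited values are linear probe set intensities. They came from MAS5, as the submitters' processing notes state, with version and filters not given in the sources used here. The mean without the lowest and highest 2% of 45101 probe sets was 100.0 on each array. MAS5 subtracts mismatch signals and is noisy at low signal, hence the floor.

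After removal of 64 control probe sets, 34945 probe sets with a single gene gave 18193 genes, with symbols updated by Entrez identifier to RefSeq (GRCm38.p6). Each gene was represented by its probe set of highest mean log2 signal. Every member that reached the floor on at least 1 array was named; of other lists, up to 4 of the brightest members at least 2-fold apart, otherwise up to 2 of the brightest. Kit, Csf3r, Gnai2, Arrb2, Rac2, Dock2, S1pr1, Ccrl2, Ighm, Jchain, Nkg7 and the markers under the floor were named outside that rule, after their values were seen. The members and lists were chosen with earlier results of these data known. No test was possible with 1 array per genotype. The script was checked on simulated data, in which only genes well above the floor were changed. That check did not cover changed genes near the floor. Alternatives covered scaling, floor, probe set rule, a pseudocount of 16 and fold thresholds. Python 3.11.15 with numpy 2.4.6, pandas 2.3.3, statsmodels 0.14.6 and matplotlib 3.10.9 was used.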

Additional observations from a re-analysis of the deposited data

How the results depend on the processing

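No paired analysis was possible because each genotype has 1 array. The direction of all 16 genes at least 2-fold apart was kept in each of the 9 settings of scaling, floor, probe set and pseudocount that gave a value, and 10 of the 16 stayed past 2-fold throughout. These 10 were Cxcr4, Cxcr3, Ccr1, Ccr2, Ccr9, Ccl5, Ccl6, Cxcl2, Cxcl9 and Ppbp. Ccr9 had a value in only 7 of the 9 settings, with none for the mean of all probe sets or without shared ones. The other 6 (Ccl27a, Cxcl12, Cxcl16, Cxcr2, Cxcr6 and Ccr7) did not stay past 2-fold in 1 setting or more. The count of lower genes was 26 without a floor and 7 at a 3-fold threshold, against 2784 and 266 of all 18193 genes. It was 12 with quantile or loess scaling (572 and 618 of all genes) and 10 with a floor at the 65th percentile (412). It was 18 with a floor at the 40th percentile (982 of all genes) and at a 1.5-fold threshold (1791), and lay between 10 and 18 elsewhere. The count of higher genes was 2 at a 40th percentile floor, 3 without a floor and 4 at a 1.5-fold threshold. Over all 18193 genes the counts higher were 422, 2025 and 1579 in the same order. Ranks among genes that include bounds depend on the floor: without one, Cxcr2 (-2.81) and Cxcl3 (-5.79) lay further from 0 than Cxcr4 (-2.51) and Ccl6 (-4.02). The receptor median was -1.69 without shared probe sets, and with a pseudocount, which takes in all members, it was -0.41 and the ligand median -0.13. The gap of ligands over receptors was 1.04 at a 65th percentile floor and 1.16 without shared probe sets, over 3 and 6 receptors. The causes of these shifts were not tested. A count over genes measured on both arrays (11 lower, 1 higher), and one that needed all probe sets with a difference to agree (15 and 1), were added after seeing the data. The second count could not leave out genes with only 1 such probe set, among them Cxcr4, Cxcr3, Cxcl2 and Ppbp. It is therefore no check of those genes.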

Other observations

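Some probe sets are annotated to several chemokine genes and belong to none of the comparisons above. The probe set shared by Ccl19 and its copies (10 genes) gave 34.1 for wild type and 5.73 for TIF1γ Δ/Δ. Ccl19 binds Ccr7. Of the 2 probe sets shared by Ccl27a, Ccl27b and further copies, 1 gave 78.0 and 40.4 and the other gave 51.3 and 32.1. The probe set shared by the Ccl21 genes gave 0.481 and 2.12, under the floor on both arrays.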
